A study of Mus musculus with 12 samples.

Results

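The 33 genes described here encode the enzymes and transporters that carry glucose to lactate, the pentose phosphate pathway that branches from it, and the oxygen-sensing factors that set the transcription of many of these enzymes. They were taken by gene symbol from a table of 29462 gene rows, and all 33 were found. Aldoa was the only member with more than 1 row, and its higher row was used; the other row stayed between 0.14 and 1.25 FPKM. The series measured poly(A)-selected RNA from primary mouse aortic smooth muscle cells in 12 libraries, 6 for each of 2 genotypes. The KO libraries came from global CSE-knockout mice, in which cystathionine gamma-lyase, the hydrogen sulfide-producing enzyme encoded by Cth, is deleted in all tissues. The WT libraries came from C57BL/6J mice. Cells of both genotypes had been grown in medium with serum and then exposed to 1 uM angiotensin II, a vasoconstrictor peptide, for 24 h, so the KO against WT difference is one under angiotensin II and no library without the peptide enters it. The strain background of the knockout, the age of the mice and the number of mice or cultures are not stated in the labels. The p-values below therefore reflect only how much these libraries vary, and that variation may be technical. The study's stated question was which transcripts change when CSE is lost in smooth muscle cells, in the setting of abdominal aortic aneurysm.

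Glycolysis splits glucose into pyruvate through a chain of cytosolic enzymes, several of which exist as isoenzymes from separate genes. Pyruvate is either reduced to lactate and exported or taken into mitochondria, and the pentose phosphate pathway diverts glucose carbon to NADPH and ribose. Hypoxia-inducible factors are degraded when prolyl hydroxylases mark them in the presence of oxygen, and their binding to promoters of glycolytic genes is the textbook route by which low oxygen raises glycolysis; smooth muscle cells of the vessel wall rely on glycolysis even when oxygen is present.

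The values are FPKM, fragments scaled by transcript length and by the library's total. The FPKM of a library summed to between 255538 and 281432, and the depth in reads is unknown. Cth was at 0 to 0.02 FPKM in KO libraries and at 0 to 0.08 FPKM in WT libraries, so its level does not check the genotype labels. Of 10 smooth muscle markers, 7, Myh11 and Cnn1 among them, were under 1 FPKM in all 12 libraries, and Acta2 gave most of the list's summed level, 86.7 to 169 FPKM in KO libraries and 124 to 152 FPKM in WT libraries. All 8 endothelial markers were under 1 FPKM. Summed macrophage markers were at 8.45 to 14.9 FPKM in KO libraries and 2.09 to 2.93 FPKM in WT libraries, with Ptprc and Adgre1 under 1 FPKM in all libraries. Of 12 epithelial and mesothelial markers, 7 were under 1 FPKM throughout. Their list summed to 44.6 to 68.2 FPKM in KO libraries and 146 to 155 FPKM in WT libraries, carried by Cdh1 (0.86 FPKM in KO and 65.0 FPKM in WT on average) and Krt19 (50.1 FPKM in KO and 78.5 FPKM in WT), while 6 of the 12 had the higher mean in KO, Wt1 and Upk3b among them. KO libraries 5 and 6 stood apart: their correlation with KO libraries 1 to 4 was 0.947 to 0.960, against 0.993 to 0.995 within KO libraries 1 to 4 and 0.991 to 0.995 within WT libraries. Their summed fibroblast markers were 504.3 and 722 FPKM, against 1175 to 1273 FPKM in KO libraries 1 to 4, and 831 to 880 FPKM in WT libraries. Col1a1 gave most of this sum. Of the 8 fibroblast markers, 5 had the higher mean in KO. Among them were Col3a1 (106.5 FPKM in KO and 0.593 FPKM in WT) and Dpt (15.5 FPKM in KO and 0.0433 FPKM in WT). Col1a2 averaged 173 FPKM in KO and 299 FPKM in WT. The summed cell-cycle markers of KO libraries 5 and 6 were 308 and 382 FPKM, against 131 to 143 FPKM in KO libraries 1 to 4, and 150 to 211 FPKM in WT libraries. The part of these differences in the results below was not tested. Member values without KO libraries 5 and 6 are given where the call or the size changes, and the counts without them are given for all groups of genes.

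The KO mean was above the WT mean for 22 of the 33 members. Of the 33 members, 30 passed the filter of at least 1 FPKM in at least 6 libraries and were tested with limma on log2(FPKM + 1), with adjustment over all 11831 genes tested. At an adjusted p under 0.05, 16 members were higher in KO, 6 were lower and 8 were not called; Slc2a3, Aldoc and Epas1 were below the filter. Over all genes tested, 32.6% were called higher and 30.9% lower, 63.5% in either direction, so a call by itself is common in this comparison. The median log2 difference of the 30 tested members was 0.20, against 0.01 over all genes. The 6 KO values lay wholly outside the 6 WT values for 14 of the 30 tested members, a share near the 46.4% seen over all genes tested. Slc16a3 passed the filter only through its KO libraries, so its place among the 16 follows from the filter and supports nothing. Without KO libraries 5 and 6, 31 members were tested, 19 were called higher and 6 lower, against 40.5% higher and 36.7% lower over all genes; Gpi1, Pfkfb3 and Epas1 were the added calls, all higher in KO, and Epas1 entered that fit only through its KO libraries, so its call there follows from the filter. In bulk RNA, fewer cells of a type and less RNA per cell cannot be told apart.

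**Figure D1:**
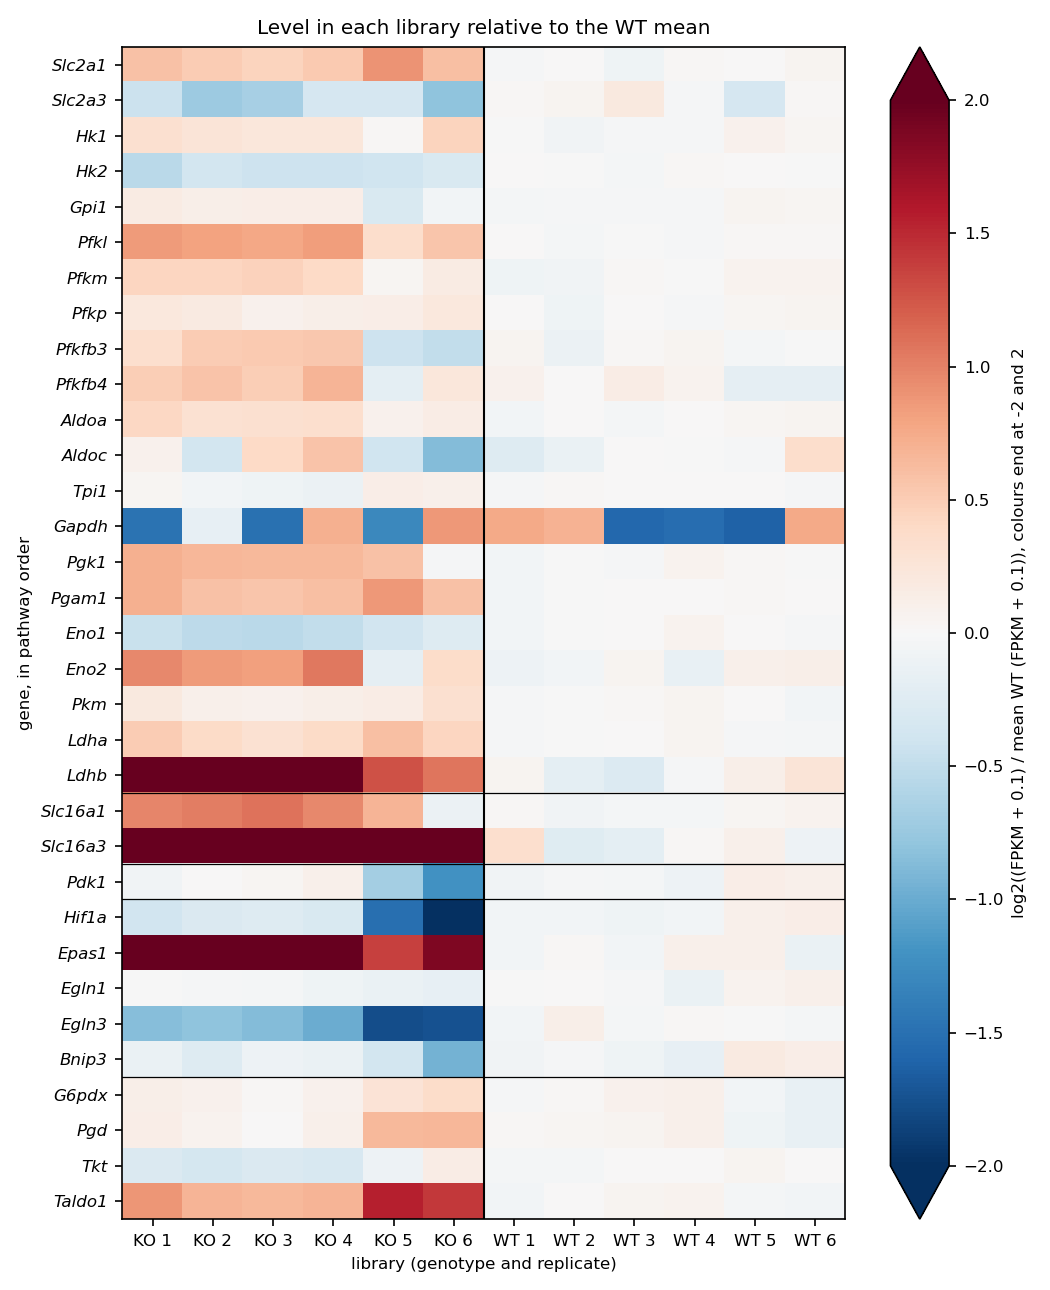
Heat map of the 33 members, in pathway order down the page, across the 6 KO libraries and the 6 WT libraries. Colour is log2 of (FPKM + 0.1) over the WT mean of the same quantity, limited to -2 and 2; Slc16a3, Epas1 and Ldhb are above the WT mean in every KO library, Egln3 and Hif1a are below it in every KO library, and KO libraries 5 and 6 differ from the other 4 in Hif1a, Pfkfb3, Ldhb and Taldo1.

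Promoter sequence was read for 31 of the 33 members from RefSeq windows of GRCm38.p6, 250 bases before to 50 bases after an annotated start. The letters ACGTG, the core of the element bound by hypoxia-inducible factors and also part of the E-box bound by other factors, were in at least 1 window of 19 of these 31 members and of 21.8% of 27025 genes, on either strand. The letters GCGTG were in at least 1 window of 21 members and of 35.2% of genes, and either was in 28 members and in 46.7% of genes. The median GC content of the 45 member windows was 61%, against 52.7% over all windows, so the members' windows are also richer in the bases of these motifs. Members had more windows per gene as well, 45 for 31 members against 32851 for 27025 genes, which favours a match in at least 1 window. The 5 windows shown belong to the member with the highest KO over WT ratio (Slc16a3), the pair of lactate dehydrogenase genes (Ldha, the first of its 2 windows, and Ldhb), an abundant enzyme that rose (Pgk1) and the oxygen sensor that fell (Egln3). Slc16a3 is at chr11:120948817-120949116 on the plus strand, Ldha at chr7:46845554-46845853 on the plus strand, Ldhb at chr6:142507908-142508207 on the minus strand, Pgk1 at chrX:106186850-106187149 on the plus strand and Egln3 at chr12:54203825-54204124 on the minus strand. Sequences run 5′ to 3′ on the gene's strand, and capitals mark ACGTG and GCGTG read on either strand, so CACGT and CACGC are in capitals too.
Slc16a3: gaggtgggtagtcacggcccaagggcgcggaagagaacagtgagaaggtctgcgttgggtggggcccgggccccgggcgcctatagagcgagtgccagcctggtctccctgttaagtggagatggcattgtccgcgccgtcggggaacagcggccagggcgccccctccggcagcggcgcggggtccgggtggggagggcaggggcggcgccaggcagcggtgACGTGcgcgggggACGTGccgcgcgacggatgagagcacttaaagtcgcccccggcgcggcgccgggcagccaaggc
Ldha: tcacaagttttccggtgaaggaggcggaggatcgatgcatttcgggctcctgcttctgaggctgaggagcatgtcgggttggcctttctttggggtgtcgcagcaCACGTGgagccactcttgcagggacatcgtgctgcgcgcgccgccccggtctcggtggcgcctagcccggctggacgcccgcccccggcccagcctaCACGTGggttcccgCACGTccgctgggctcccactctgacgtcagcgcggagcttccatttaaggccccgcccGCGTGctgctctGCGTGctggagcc
Ldhb: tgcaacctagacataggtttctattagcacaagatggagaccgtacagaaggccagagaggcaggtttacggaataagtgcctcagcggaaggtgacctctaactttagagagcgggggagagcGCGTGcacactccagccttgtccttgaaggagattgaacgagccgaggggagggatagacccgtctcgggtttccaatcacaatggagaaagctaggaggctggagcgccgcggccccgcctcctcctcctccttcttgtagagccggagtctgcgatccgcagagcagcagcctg
Pgk1: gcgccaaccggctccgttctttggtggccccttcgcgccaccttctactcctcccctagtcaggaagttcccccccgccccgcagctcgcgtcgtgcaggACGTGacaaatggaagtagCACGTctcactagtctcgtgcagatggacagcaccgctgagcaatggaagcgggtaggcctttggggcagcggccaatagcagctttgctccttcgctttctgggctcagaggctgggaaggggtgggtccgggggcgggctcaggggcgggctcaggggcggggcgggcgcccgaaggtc
Egln3: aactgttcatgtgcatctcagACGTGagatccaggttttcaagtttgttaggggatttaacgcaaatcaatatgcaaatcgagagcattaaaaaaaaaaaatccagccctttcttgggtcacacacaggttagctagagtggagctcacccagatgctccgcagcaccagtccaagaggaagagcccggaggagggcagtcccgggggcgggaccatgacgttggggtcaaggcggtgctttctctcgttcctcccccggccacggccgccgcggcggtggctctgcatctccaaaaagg
The Slc16a3 and Pgk1 windows each held 2 matches to ACGTG and none to GCGTG, and the Ldha window held 5 and 2. In the Ldha window, CACGTG is present at 2 places and counts on both strands. The Egln3 window held 1 match to ACGTG, and the Ldhb window held 1 match to GCGTG. Windows of members that were lower in KO held matches too, with 2 to ACGTG for Hk2 and 3 for Hif1a. A match is a run of letters in a window and does not show that a factor was bound.

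Glucose entry and its first phosphorylation held genes on both sides. The transporter gene Slc2a1, which encodes GLUT1, was higher in KO cells, and of the hexokinases that trap glucose in the cell Hk1 was higher and Hk2 lower. Slc2a1 was at 31.2 to 42.8 FPKM (median 33.6) in KO libraries, against 21.6 to 23.7 FPKM (median 22.97) in WT libraries. The ranges did not overlap, the KO mean was 1.52 times the WT mean, and the log2 difference was 0.58 ± 0.07 (SE), adjusted p = 8e-06. The highest KO value was that of KO library 5.

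Slc2a3, the gene of the neuronal-type transporter GLUT3, was at 0.11 to 0.19 FPKM (median 0.15) in KO libraries, against 0.19 to 0.32 FPKM (median 0.27) in WT libraries, far below Slc2a1 in every library. Its difference on the log2(FPKM + 1) scale was -0.14, with an unadjusted p = 0.00649 in a two-sided exact permutation test of the genotype labels, and the ranges overlapped. Hk2, the insulin- and hypoxia-responsive hexokinase, was at 19.7 to 23.4 FPKM (median 21.7) in KO libraries, against 28.2 to 29.4 FPKM (median 28.7) in WT libraries. Every KO library was below every WT library, the WT mean was 1.33 times the KO mean, and the log2 difference was -0.39 ± 0.05 (SE), adjusted p = 7.7e-06. Hk1, the more constitutive isoform, was at 31.5 to 42.1 FPKM (median 36.5) in KO libraries, against 29.5 to 32.8 FPKM (median 30.5) in WT libraries. Its log2 difference was 0.25 ± 0.06 (SE), adjusted p = 0.0041, and KO library 5, at 31.5 FPKM, lay within the WT range; under quantile normalization the difference was 0.10 (adjusted p = 0.248). The sum of both hexokinases was 58.7 ± 3.95 FPKM in KO and 59.7 ± 1.37 FPKM in WT (SD, n = 6 each), so the total differed by less than the spread in KO libraries. Hk1 made up 62.9 ± 2.39% of that sum in KO libraries and 51.7 ± 0.943% in WT libraries.

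The phosphofructokinase step, the main control point of glycolysis, was higher in KO cells for all 3 of its genes. Pfkl, the liver-type subunit, had the largest difference and was at 33.7 to 47.7 FPKM (median 45.8) in KO libraries, against 25.9 to 27.1 FPKM (median 26.5) in WT libraries. The KO mean was 1.63 times the WT mean with no overlap, and KO libraries 5 and 6 were the 2 lowest KO values. The log2 difference was 0.68 ± 0.08 (SE), adjusted p = 7.2e-06. Pfkm, the muscle-type subunit, averaged 23.4 ± 2.68 FPKM in KO and 18.6 ± 0.844 FPKM in WT, with a log2 difference of 0.31 ± 0.07 (SE), adjusted p = 0.0023 and ranges that overlapped. Pfkp, the platelet-type subunit, averaged 5.09 ± 0.188 FPKM in KO and 4.56 ± 0.168 FPKM in WT, and its difference was smaller, 0.13 ± 0.04 (SE), adjusted p = 0.019; this gene overlaps Pitrm1 on chromosome 13, and whether reads were assigned by strand is not stated in the labels. The summed level of the 3 genes was 71.7 ± 8.29 FPKM in KO and 49.7 ± 1.36 FPKM in WT (SD, n = 6 each). Pfkl held 60.1 ± 1.21% of that sum in KO libraries and 53.3 ± 0.752% in WT libraries.

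The bifunctional enzymes that make the allosteric activator of phosphofructokinase did not behave as one group. Pfkfb4 was higher in KO, at 2.53 to 4.7 FPKM (median 4.13) in KO libraries, against 2.57 to 3.24 FPKM (median 2.995) in WT libraries. Its log2 difference was 0.30 ± 0.10 (SE), adjusted p = 0.021, and the KO and WT ranges overlapped; in an exact rank-sum test the adjusted p was 0.0942. Pfkfb3 was at 4.6 to 9.49 FPKM (median 8.79) in KO libraries, against 6.02 to 6.79 FPKM (median 6.54) in WT libraries, and was not called (0.16 ± 0.16 (SE), adjusted p = 0.41). KO libraries 1 to 4 were all above the WT range, at 8.26 to 9.49 FPKM, and KO libraries 5 and 6 were below it, at 4.87 and 4.6 FPKM. With libraries 5 and 6 left out, the log2 difference of Pfkfb3 was 0.43 (limma, adjusted p = 2.5e-06).

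**Figure D2:**
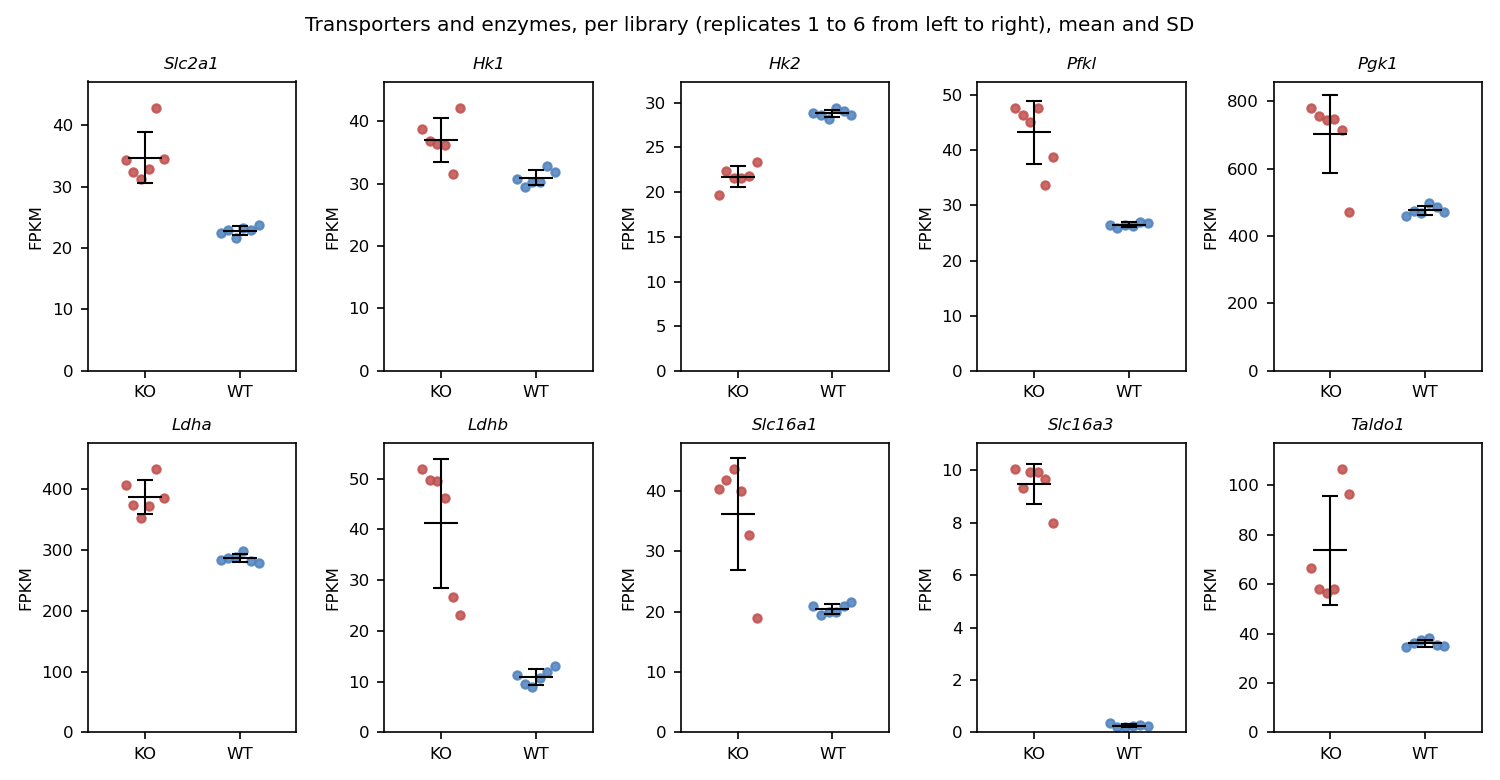
FPKM per library of enzymes and transporters of glycolysis and of Taldo1 of the pentose phosphate pathway, with KO on the left and WT on the right of each panel; lines are the mean and bars the SD of 6 libraries. The KO points lie wholly above the WT points for Slc2a1, Pfkl, Ldha, Ldhb, Slc16a3 and Taldo1, and wholly below them for Hk2.

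Among the remaining enzymes of the hexose and triose steps, Aldoa was higher in KO and Gpi1, Tpi1 and Aldoc were not called. Aldoa, the aldolase that splits the hexose bisphosphate, was at 311 to 388 FPKM (median 363) in KO libraries, against 281 to 302 FPKM (median 293) in WT libraries. Every KO library was above every WT library, and the log2 difference was 0.27 ± 0.06 (SE), adjusted p = 0.0012. Aldoc, the brain-type aldolase, was low in both genotypes, with 0.695 ± 0.2899 FPKM in KO and 0.703 ± 0.119 FPKM in WT and p = 0.84 in the exact permutation test. Gpi1, the isomerase upstream, averaged 91.5 ± 10.7 FPKM in KO and 89.1 ± 2.56 FPKM in WT and was not called (0.03 ± 0.07 (SE), adjusted p = 0.74); with KO libraries 5 and 6 left out its log2 difference was 0.13 (limma, adjusted p = 0.00056). Tpi1, the triose isomerase, averaged 335 ± 23.8 FPKM in KO and 333 ± 4.76 FPKM in WT, with a log2 difference of 0.00 ± 0.05 (SE), adjusted p = 0.96.

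In the lower steps Pgk1, Pgam1, Pkm and Eno2 were all higher in KO. Pgk1, the ATP-yielding phosphoglycerate kinase, was one of the most abundant members, at 471 to 781 FPKM (median 746) in KO libraries, against 461 to 499 FPKM (median 474) in WT libraries. KO library 6, at 471 FPKM, lay within the WT range, and the other 5 KO libraries were at 714 to 781 FPKM, all above it. The log2 difference was 0.54 ± 0.11 (SE), adjusted p = 0.00059, with a KO mean 1.47 times the WT mean. Pgam1, the mutase of the next step, was at 308 to 380.1 FPKM (median 317) in KO libraries, against 201 to 212 FPKM (median 211) in WT libraries. It had no overlap, a KO mean 1.58 times the WT mean and a log2 difference of 0.65 ± 0.06 (SE), adjusted p = 2.8e-07. Pkm, the pyruvate kinase of most tissues other than liver, was at 444 to 527 FPKM (median 462) in KO libraries, against 406 to 436 FPKM (median 420.0) in WT libraries. Its difference was small but the ranges did not overlap, with a log2 difference of 0.16 ± 0.05 (SE), adjusted p = 0.011. Eno2, the neuron-type enolase, averaged 7.75 ± 2.19 FPKM in KO and 4.72 ± 0.374 FPKM in WT; its log2 difference was 0.57 ± 0.16 (SE), adjusted p = 0.0059, and the ranges overlapped through KO library 5, at 4.15 FPKM. In an exact rank-sum test the adjusted p of Eno2 was 0.0942.

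The row of Eno1, the main enolase, was lower in KO: it was at 174 to 211 FPKM (median 183) in KO libraries, against 244 to 264 FPKM (median 253) in WT libraries. The ranges did not overlap, and the log2 difference was -0.44 ± 0.05 (SE), adjusted p = 8.6e-06. That row does not hold all of the signal of this transcript. A search of GENCODE M21 transcripts found 3 other genes with at least 95% identity to Eno1 over at least 300 bases and a mean of at least 1 FPKM. Eno1b on chromosome 18, 99.5% identical over 1736 of the 2027 bases of the Eno1 transcript, averaged 256 ± 25.5 FPKM in KO and 46.2 ± 1.83 FPKM in WT. Gm4735 on chromosome 2, a processed pseudogene that is 99.6% identical over 1302 bases, averaged 196 ± 24.4 FPKM in KO and 51.9 ± 2.16 FPKM in WT. Gm5855 on chromosome 3 averaged 4.52 ± 0.8896 FPKM in KO and 0.578 ± 0.1297 FPKM in WT. The KO mean of each copy was above its WT mean, opposite in direction to Eno1. Summed over Eno1 and its 3 copies, enolase was at 577 to 745 FPKM in KO libraries and at 338 to 366 FPKM in WT libraries. Fitted on that sum, the direction was reversed: the KO mean was 1.83 times the WT mean and the log2 difference was 0.86 ± 0.06 (SE, limma, adjusted p = 6.3e-08). The split of reads among these genes is uncertain, so the fall of the Eno1 row is not reported as a fall of enolase.

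Gapdh, the dehydrogenase often used as a reference gene, could not be read from its own row. It averaged 50.6 ± 37.04 FPKM in KO and 55.5 ± 40.3 FPKM in WT, and in both genotypes the libraries fell into separate levels: KO libraries 4 and 6 were at 90.7 and 101 FPKM, KO library 2 at 49.3 FPKM and the other 3 KO libraries at 19.6 to 22.7 FPKM, while 3 WT libraries were at 90.1 to 93.4 FPKM and 3 at 18.1 to 19.3 FPKM. By the same criteria 43 genes were near-identical copies of Gapdh, 15 of which had a higher mean level than Gapdh itself. The sum over Gapdh and its copies was 3914 ± 277 FPKM in KO and 3893 ± 155 FPKM in WT (SD, n = 6 each), and in the fit on that sum the log2 difference was 0.01 (limma, adjusted p = 0.93). Pgk1, Pgam1, Pkm, Ldha and Tpi1 had 1 or 2 copies each, and summing those left their KO over WT ratios at 1.46, 1.58, 1.12, 1.35 and 1.00. With all copies summed, 17 members were called higher and 5 lower, against 32.7% and 31% over all genes in that fit. The summing was chosen after the rows had been seen.

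**Figure D3:**
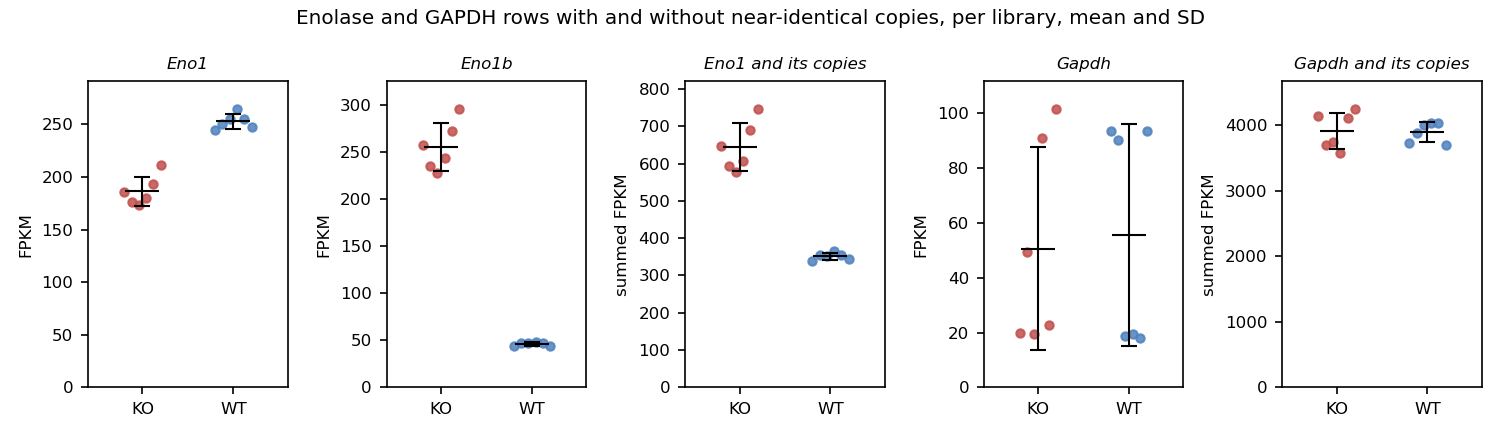
FPKM per library of the Eno1 row, the Eno1b row, the sum of Eno1 and its 3 copies, the Gapdh row, and the sum of Gapdh and its 43 copies, with KO left and WT right; lines are the mean and bars the SD of 6 libraries. Eno1 lies lower in KO, the enolase sum lies higher in KO (643 against 352 FPKM on average), and the Gapdh row splits into levels within each genotype. The Gapdh sum varies less relative to its mean. In WT libraries 1, 2 and 6, where the row is high, the sum is 3692 to 3881 FPKM, and in WT libraries 3 to 5 it is 3998 to 4036 FPKM.

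At the lactate end of the pathway Slc16a3, Ldhb, Ldha and Slc16a1 were all higher in KO. Slc16a3, which encodes the lactate exporter MCT4 (chr11:120948480-120960868, plus strand of GRCm38), was at 8.0 to 10.04 FPKM (median 9.8) in KO libraries, against 0.2 to 0.35 FPKM (median 0.245) in WT libraries. The KO mean was 37.2 times the WT mean. Every KO library was far above every WT library, where the gene was close to absent, and the difference on the log2(FPKM + 1) scale was 3.06. No p is given, because the gene entered the fit only through the libraries where it is high. KO library 6 was the lowest KO value. Ratios of FPKM exceed the fitted differences for genes this low in WT, since adding 1 before the logarithm reduces the difference.

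Ldhb, the lactate dehydrogenase subunit that favours conversion of lactate to pyruvate (chr6:142490249-142507957, minus strand of GRCm38), was at 23.1 to 51.8 FPKM (median 47.8) in KO libraries, against 9.0 to 13.1 FPKM (median 11.03) in WT libraries. The KO mean was 3.77 times the WT mean without overlap, and the log2 difference was 1.77 ± 0.20 (SE), adjusted p = 3.7e-06. KO libraries 5 and 6 were at 26.7 and 23.1 FPKM, and KO libraries 1 to 4 at 46.2 to 51.8 FPKM, so the size differs between these libraries while the direction does not. Ldha, the subunit that favours lactate formation and the more abundant of the pair, was at 353 to 433 FPKM (median 380.4) in KO libraries, against 279.6 to 299 FPKM (median 285) in WT libraries. Its KO mean was 1.35 times the WT mean, with no overlap and a log2 difference of 0.43 ± 0.05 (SE), adjusted p = 9.3e-06. The summed level of both genes was 429 ± 24.5 FPKM in KO and 298 ± 6.18 FPKM in WT (SD, n = 6 each). Ldhb held 9.63 ± 3.06% of that sum in KO libraries and 3.67 ± 0.546% in WT libraries.

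Slc16a1, which encodes the broadly expressed lactate transporter MCT1, was at 18.9 to 43.6 FPKM (median 40.1) in KO libraries, against 19.4 to 21.6 FPKM (median 20.4) in WT libraries. The KO mean was 1.77 times the WT mean and the log2 difference was 0.75 ± 0.16 (SE), adjusted p = 0.0013, but KO library 6, at 18.9 FPKM, lay below the WT range, and in an exact rank-sum test adjusted over all genes the p was 0.0942. Slc16a3 made up 21.5 ± 4.33% of the summed Slc16a1 and Slc16a3 level in KO libraries and 1.23 ± 0.243% in WT libraries. The chaperones of these transporters moved in opposite directions: Bsg, the partner of MCT1 and MCT4, averaged 375 ± 60.5 FPKM in KO and 299 ± 12.9 FPKM in WT (log2 difference 0.31 ± 0.10 (SE), adjusted p = 0.013), and Emb, embigin, averaged 10.4 ± 3.99 FPKM in KO and 37.6 ± 1.07 FPKM in WT (log2 difference -1.86 ± 0.23 (SE), adjusted p = 8.7e-06). For Bsg, KO libraries 5 and 6, at 304 and 292 FPKM, lay within the WT range of 286 to 321 FPKM. KO libraries 1 to 4 were at 406 to 426 FPKM. Bsg was named after its values had been seen.

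**Figure D4:**
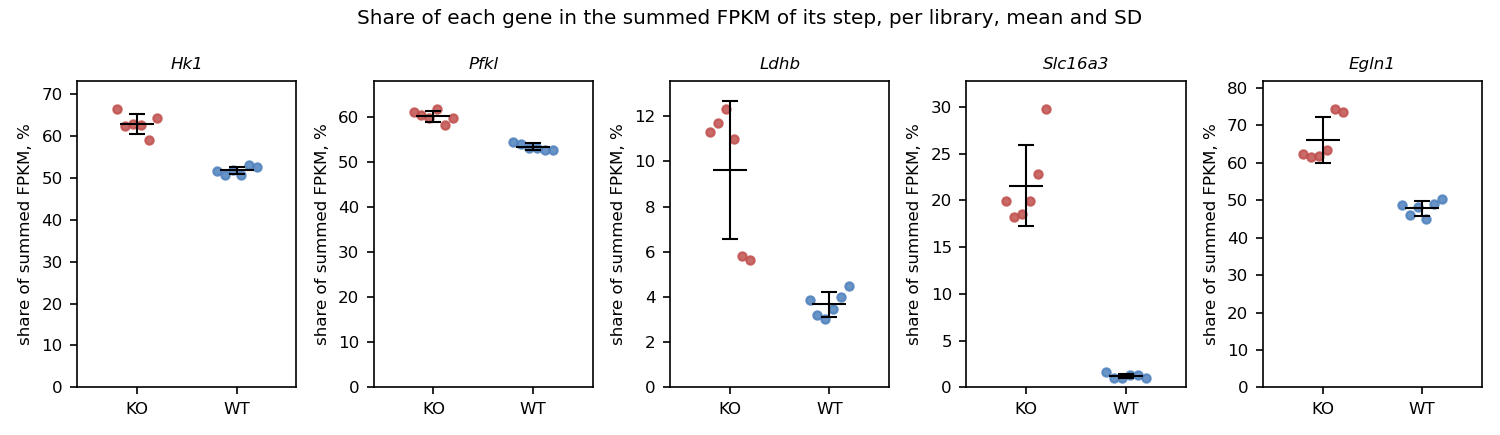
Share of one gene in the summed FPKM of the members of its step, per library, for Hk1 among Hk1 and Hk2, Pfkl among the 3 phosphofructokinase genes, Ldhb among Ldha and Ldhb, Slc16a3 among Slc16a1 and Slc16a3, and Egln1 among Egln1 and Egln3; KO is left and WT right, with the mean and SD of 6 libraries. Each of these shares is higher in every KO library than in every WT library.

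Genes that govern the entry of pyruvate into mitochondria were called in both directions. Pdk1, a kinase that switches off pyruvate dehydrogenase and a textbook target of HIF-1, averaged 10.4 ± 3.22 FPKM in KO and 12.2 ± 0.837 FPKM in WT and was not called (-0.27 ± 0.18 (SE), adjusted p = 0.2). KO libraries 5 and 6 were at 7.58 and 5.2 FPKM, below the WT range of 11.4 to 13.4 FPKM, and KO libraries 1 to 4 were at 11.7 to 13.02 FPKM. Of the 14 other genes of this group, all tested, 8 were called higher and 5 lower, with a median log2 difference of 0.23, where 32.6% and 30.9% of all genes were called. The counts were again 8 and 5 without KO libraries 5 and 6, where the shares over all genes rose to 40.5% and 36.7%. They were 5 and 5 in an exact rank-sum test, which also called fewer genes than limma over all genes. Pcx, pyruvate carboxylase, had the largest difference and averaged 12.4 ± 1.87 FPKM in KO and 1.07 ± 0.1305 FPKM in WT (KO over WT ratio 11.6). Pcx passed the filter through its KO libraries, with WT values of 0.95 to 1.24 FPKM around the limit, so no p is given for it. The kinase Pdk3 averaged 20.4 ± 2.65 FPKM in KO and 6.84 ± 0.426 FPKM in WT (adjusted p = 6e-09), and Pdhb, a subunit of the dehydrogenase itself, averaged 16.5 ± 1.29 FPKM in KO and 13.7 ± 0.531 FPKM in WT (adjusted p = 0.0013). Among the 5 lower genes, the kinase Pdk4 averaged 4.31 ± 0.474 FPKM in KO and 8.24 ± 1.26 FPKM in WT (adjusted p = 5e-06). The regulatory subunit Pdpr averaged 3.77 ± 0.79 FPKM in KO and 7.34 ± 0.455 FPKM in WT (adjusted p = 1.1e-05), and the phosphatase Pdp2, which removes the inhibitory phosphate, averaged 1.41 ± 0.106 FPKM in KO and 2.38 ± 0.312 FPKM in WT (adjusted p = 2.6e-05). The group thus held inhibitory kinases on both sides.

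The oxygen-sensing members went in different directions. Hif1a and Egln3 were lower in KO, Epas1 was higher in every KO library, and Egln1 was not called. Hif1a, the oxygen-labile subunit of HIF-1, was at 36.7 to 124 FPKM (median 116) in KO libraries, against 139 to 162 FPKM (median 142) in WT libraries. The ranges did not overlap, and the log2 difference was -0.78 ± 0.27 (SE), adjusted p = 0.024. KO libraries 5 and 6 were at 51.9 and 36.7 FPKM, and KO libraries 1 to 4 at 113 to 124 FPKM. The call was lost without KO library 5 (log2 difference -0.64, adjusted p = 0.0535), and without both libraries 5 and 6 the difference was -0.30 (limma, adjusted p = 8.2e-05). The HIF-1 subunit is regulated mostly at the protein level, which RNA does not measure.

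Epas1, which encodes the related subunit HIF-2 alpha (chr17:86753700-86833410, plus strand of GRCm38), was at 0.38 to 2.03 FPKM (median 1.76) in KO libraries, against 0.07 to 0.1 FPKM (median 0.085) in WT libraries. Every KO library was above every WT library; the KO mean was 16.1 times the WT mean and the difference was 1.08 on the log2(FPKM + 1) scale. The two-sided exact permutation test gave an unadjusted p = 0.00216, the smallest that the design allows. Any gene without overlap gets this p, and 46.4% of all genes tested had no overlap. KO libraries 5 and 6 were at 0.38 and 0.58 FPKM, and KO libraries 1 to 4 at 1.66 to 2.03 FPKM. The level of Epas1 was low, and Hif1a held 98.6 ± 0.353% of the summed level of both genes in KO libraries and 99.9 ± 0.00924% in WT libraries.

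Egln3, the prolyl hydroxylase PHD3 and itself induced by HIF (chr12:54178981-54203860, minus strand of GRCm38), was at 7.19 to 14.1 FPKM (median 12.9) in KO libraries, against 23.8 to 26.7 FPKM (median 24.4) in WT libraries. No KO library reached the WT range, the WT mean was 2.18 times the KO mean, and the log2 difference was -1.10 ± 0.16 (SE), adjusted p = 3.6e-05. Egln1, the principal oxygen sensor PHD2, averaged 21.6 ± 0.933 FPKM in KO and 22.7 ± 1.28 FPKM in WT, with a log2 difference of -0.07 ± 0.05 (SE), adjusted p = 0.24. The share of Egln1 in the summed level of both hydroxylases was 66.1 ± 6.05% in KO libraries and 47.9 ± 1.96% in WT libraries. Bnip3, a mitophagy receptor induced by HIF-1, averaged 29.7 ± 5.68 FPKM in KO and 36.4 ± 3.35 FPKM in WT. Its log2 difference was -0.31 ± 0.12 (SE), adjusted p = 0.046; the call was lost without any 1 of KO libraries 2 and 5 and WT libraries 1, 2, 3, 5 and 6 (adjusted p between 0.0577 and 0.0959), without KO library 6 the difference was -0.19, and without KO libraries 5 and 6 it was -0.15 (adjusted p = 0.045).

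**Figure D5:**
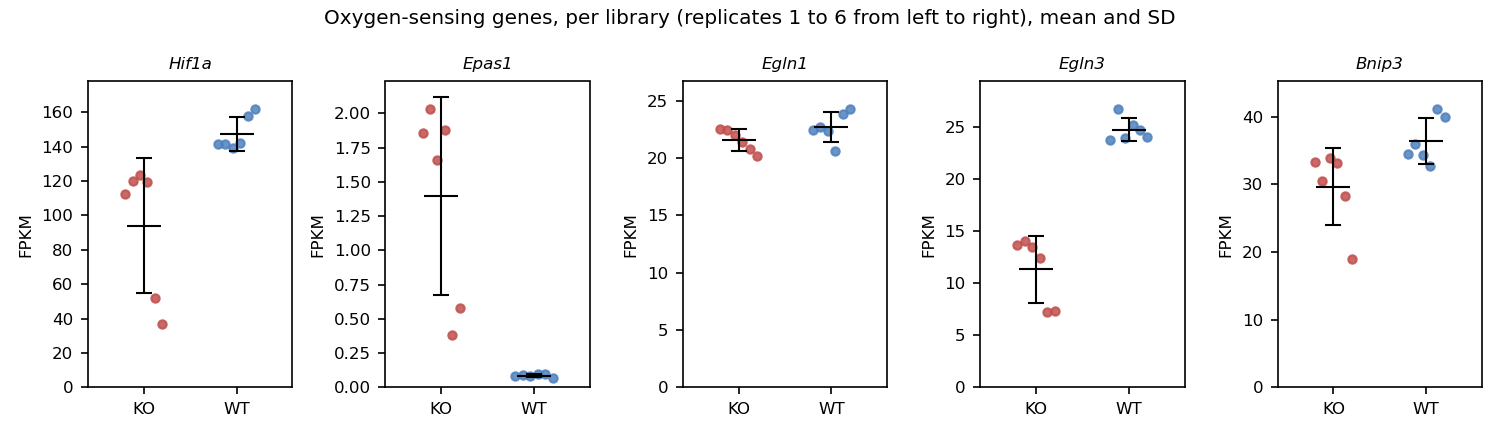
FPKM per library of Hif1a, Epas1, Egln1, Egln3 and Bnip3, with KO left and WT right; lines are the mean and bars the SD of 6 libraries. Hif1a and Egln3 lie below and Epas1 above the WT range in all 6 KO libraries, the last 2 KO libraries are the lowest for Hif1a, Epas1 and Egln3, and Egln1 overlaps between genotypes.

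Of 12 tested genes among 13 oxygen-sensing partners of HIF, 6 were called higher and 2 lower in KO, with a median log2 difference of 0.18. The shares over all genes tested were 32.6% higher and 30.9% lower, so calls among these partners are not particular to them. Without KO libraries 5 and 6, 7 were called higher and 2 lower, against 40.5% and 36.7% over all genes. An exact rank-sum test called 6 higher and 1 lower, and it also called fewer genes than limma over all genes. The higher ones included Cited2, a HIF-induced competitor of HIF for its coactivator, which averaged 20.03 ± 6.32 FPKM in KO and 3.54 ± 0.247 FPKM in WT (adjusted p = 4.4e-08). Arnt2, a dimerization partner of HIF subunits, averaged 4.503 ± 0.724 FPKM in KO and 0.82 ± 0.0764 FPKM in WT and passed the filter only through its KO libraries, so no p is given for it, and Rbx1, a subunit of the ubiquitin ligase that degrades them, averaged 19.96 ± 2.68 FPKM in KO and 10.96 ± 0.2397 FPKM in WT (adjusted p = 1.7e-06). The lower ones were the coactivator Crebbp, with 2.902 ± 0.843 FPKM in KO and 4.21 ± 0.331 FPKM in WT (adjusted p = 0.0035), and Elob, elongin B of the same ligase, with 62.3 ± 2.98 FPKM in KO and 71.3 ± 1.73 FPKM in WT (adjusted p = 0.0021). For Crebbp, KO library 6, at 4.58 FPKM, lay within the WT range of 3.68 to 4.66 FPKM. The call of Crebbp was lost in the exact rank-sum test.

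The 39 other HIF target genes showed no common direction. Of the 33 tested, 13 were called higher, 10 lower and 10 not called, with a median log2 difference of -0.0049. Over all genes tested, 32.6% were called higher and 30.9% lower. Without KO libraries 5 and 6, 17 were called higher and 12 lower, against 40.5% and 36.7% over all genes. The higher genes included Hmox1, heme oxygenase, with 239 ± 45.3 FPKM in KO and 65.2 ± 1.73 FPKM in WT (adjusted p = 3.8e-09), and Egfr, the epidermal growth factor receptor, with 20.9 ± 2.12 FPKM in KO and 8.54 ± 0.412 FPKM in WT (adjusted p = 6.1e-09). Both genes also respond to signals other than HIF. The lower genes with the smallest p were the histone demethylase Kdm3a, with 8.26 ± 0.855 FPKM in KO and 20.3 ± 0.968 FPKM in WT (adjusted p = 3.5e-09), Zfp395, with 4.76 ± 0.611 FPKM in KO and 11.9 ± 0.3704 FPKM in WT (adjusted p = 8.4e-09), and Ankrd37, with 0.873 ± 0.178 FPKM in KO and 2.54 ± 0.366 FPKM in WT. Ankrd37 passed the filter through its WT libraries, with a KO mean under 1 FPKM, so no p is given for it. Kdm3a and Zfp395 were named because they had the smallest p among the lower genes, so they do not stand for the list. Whether HIF activity differed between the genotypes was not tested.

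In the pentose phosphate pathway the non-oxidative enzyme Taldo1 was higher in KO, Tkt was marginally lower and G6pdx and Pgd were not called. Taldo1, transaldolase (chr7:141392199-141402968, plus strand of GRCm38), was at 56.6 to 107 FPKM (median 62.3) in KO libraries, against 34.7 to 38.04 FPKM (median 35.8) in WT libraries. Every KO library was above every WT library, the KO mean was 2.04 times the WT mean, and the log2 difference was 0.96 ± 0.15 (SE), adjusted p = 8.2e-05. KO libraries 5 and 6, at 107 and 96.6 FPKM, were the highest, and KO libraries 1 to 4 were at 56.6 to 66.5 FPKM. Tkt, transketolase, averaged 32.5 ± 4.62 FPKM in KO and 37.1 ± 0.976 FPKM in WT. Its log2 difference was -0.19 ± 0.08 (SE), adjusted p = 0.043, and KO library 6, at 41.2 FPKM, was above the WT range. The call of Tkt was lost under 15 of 25 alternatives, among them leaving out any 1 of KO libraries 1 to 4 or any 1 WT library (adjusted p between 0.0568 and 0.0941), while without KO libraries 5 and 6 the difference was -0.30 (adjusted p = 6.1e-07).

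G6pdx, glucose phosphate dehydrogenase, which commits glucose to the pathway and makes NADPH, averaged 101 ± 9.37 FPKM in KO and 90.3 ± 5.64 FPKM in WT and was just outside the threshold (0.16 ± 0.07 (SE), adjusted p = 0.053). Pgd, the second NADPH-producing dehydrogenase, averaged 54.4 ± 11.8 FPKM in KO and 44.2 ± 2.75 FPKM in WT and was also outside it (0.27 ± 0.12 (SE), adjusted p = 0.056), with KO libraries 5 and 6 at 69.1 and 70.1 FPKM above all others. Without KO library 3 the adjusted p was 0.0361 for G6pdx and 0.0299 for Pgd; without WT library 4 it was 0.0465 for G6pdx, and without KO library 2 or 4 it was 0.0416 and 0.0478 for Pgd. Of 12 other genes of the pathway, 9 were tested, with 3 called higher and 3 lower and a median log2 difference of 0.06. Over all genes tested, 32.6% were called higher and 30.9% lower. Without KO libraries 5 and 6 the counts of the 12 genes were 4 and 3, against 40.5% and 36.7% over all genes. H6pd, the dehydrogenase of the endoplasmic reticulum, averaged 85.9 ± 8.696 FPKM in KO and 27.5 ± 1.03 FPKM in WT (KO over WT ratio 3.12, adjusted p = 2.3e-10). The phosphoribosyl pyrophosphate synthetases Prps1 and Prps2, which take ribose phosphate into nucleotides, were the other 2 higher genes, with 19.7 ± 6.88 FPKM in KO and 11.8 ± 1.303 FPKM in WT (adjusted p = 0.0028) and 18.2 ± 2.74 FPKM in KO and 13.3 ± 0.7595 FPKM in WT (adjusted p = 0.0011). The lower genes were the lactonase Pgls, with 6.297 ± 1.198 FPKM in KO and 8.73 ± 0.605 FPKM in WT (adjusted p = 0.0028), the isomerase Rpia, with 1.52 ± 0.237 FPKM in KO and 2.14 ± 0.237 FPKM in WT (adjusted p = 0.0019), and Prpsap1, a synthetase-associated protein, with 14.8 ± 1.17 FPKM in KO and 18.5 ± 0.582 FPKM in WT (adjusted p = 0.00031).

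Of 28 other isoenzymes of glycolysis and its transporters, 15 were below the filter, as were 17631 of all 29462 genes. Of the 13 tested, 5 were called higher and 4 lower, with a median log2 difference of 0.04. Over all genes tested, 32.6% were called higher and 30.9% lower. Without KO libraries 5 and 6, 7 were called higher and 4 lower, against 40.5% and 36.7% over all genes. Eno3, the muscle-type enolase, averaged 22.7 ± 4.79 FPKM in KO and 38.5 ± 2.04 FPKM in WT (adjusted p = 3.9e-05), and the transporter Slc2a8 averaged 2.42 ± 0.817 FPKM in KO and 3.73 ± 0.303 FPKM in WT (adjusted p = 0.0072). Among the higher ones, Adpgk, a glucokinase that uses ADP, averaged 3.53 ± 0.168 FPKM in KO and 2.77 ± 0.146 FPKM in WT (adjusted p = 0.00027). Pgm2, a phosphoglucomutase, averaged 11.1 ± 1.32 FPKM in KO and 8.098 ± 0.233 FPKM in WT (adjusted p = 0.00015). Pgam2, the muscle-type mutase, averaged 1.49 ± 0.543 FPKM in KO and 0.793 ± 0.182 FPKM in WT. Pgam2 passed the filter mainly through KO libraries 1 to 4, at 1.67 to 2.03 FPKM, so no p is given for it. Its values in KO libraries 5 and 6, 0.85 and 0.77 FPKM, lay within the WT range of 0.63 to 1.05 FPKM.

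Of 24 other regulators of the pathway, 18 were tested, 7 were called higher and 1 lower, with a median log2 difference of 0.08. Over all genes tested, 32.6% were called higher and 30.9% lower. Without KO libraries 5 and 6, 8 were called higher and 2 lower, against 40.5% and 36.7% over all genes. The lower gene was Myc, a transcription factor known to raise glycolytic genes, with 21.4 ± 6.08 FPKM in KO and 30.3 ± 1.77 FPKM in WT (adjusted p = 0.0041). KO library 6, at 32.6 FPKM, was above the WT range of Myc, and its call was lost in an exact rank-sum test. The higher ones with the smallest p were Arrdc4, an arrestin-domain protein that restrains glucose uptake, with 10.8 ± 2.95 FPKM in KO and 3.36 ± 0.479 FPKM in WT (adjusted p = 5.4e-06), Prkab2, a subunit of AMP-activated kinase, with 4.4 ± 0.443 FPKM in KO and 2.21 ± 0.138 FPKM in WT (adjusted p = 2.4e-07), and the kinase Akt2, with 15.3 ± 0.645 FPKM in KO and 12.3 ± 0.277 FPKM in WT (adjusted p = 6.5e-05). Within each of these groups calls in both directions were present, as they were over all genes tested.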

How the data were processed

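Total RNA of the 12 libraries was poly(A)-selected, made into dUTP-marked libraries and sequenced as paired ends, per the labels' protocols. Tools listed per the submitters' processing notes, with no role or order, are StringTie 1.3.4d, HISAT2 2.0.4, cutadapt 1.9, edgeR and DESeq2, and the build is mm9. The authors deposited 1 table of FPKM per gene and library with 2 decimals, and no count table was used here. Its gene IDs matched GENCODE M21 for 29384 of 29462 rows, so coordinates are those of GRCm38. FPKM is relative to the library's total, so a gene's value also moves with the rest of the library.

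Groups follow the genotype label. Differences were fitted with limma 3.58.1 (R 4.3.3, trended variance, two-sided) on log2(FPKM + 1), for genes reaching 1 FPKM in 6 or more libraries (with libraries left out, in as many as the smaller group holds), with Benjamini-Hochberg adjustment at 0.05. The fit was tested on simulated data. Fold values are ratios of mean FPKM, and ± is the SD over 6 libraries unless given as SE. Members below the filter had an exact permutation test, without adjustment. Copies were found with blastn 2.17.0. Alternatives varied the pseudocount, filter, scaling, weights, test and block, and left out each library. All 33 members are named; from each further list, up to 3 higher and 3 lower called genes with the smallest p are named, except 1 that is not reported here. Fbp1, Pgk2, Ldhc and Ero1a were not analysed here. The members and lists were chosen with earlier results of these data known.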

Additional observations from a re-analysis of the deposited data

Results flagged for a closer look

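In each group of 6 libraries, the distance of the most extreme library from its neighbour was compared with the range of the group, and groups above Dixon's critical value of 0.625 were noted. Chance gives about 1 in 20 groups, and 9 of 144 groups (6.25%) were noted, so their number is near that share. The rule looks for 1 extreme library, so it misses groups where KO libraries 5 and 6 deviate together, such as Hif1a and Ldhb. The groups are also not independent, so nothing is concluded from their number. Slc2a1 was at 42.83 FPKM in KO library 5, with the other KO libraries at 31.17 to 34.56. Pgk1 was at 470.51 FPKM in KO library 6, with the others at 713.81 to 780.53, and its copy Pgk1-rs7 was at 21.25 FPKM in the same library, with the others at 29.47 to 32.74. Slc16a3 was at 8.0 FPKM in KO library 6, with the others at 9.31 to 10.04. Among genes outside the members, Pdhb was at 19.07 FPKM in KO library 5 (others 15.58 to 16.57) and Prps1 at 33.35 FPKM in KO library 5 (others 15.26 to 19.57). Crebbp was at 4.58 FPKM in KO library 6 (others 2.39 to 2.89). In WT, Pdk3 was at 6.04 FPKM in library 1 (others 6.83 to 7.24) and Pdpr at 6.45 FPKM in library 2 (others 7.36 to 7.67). Of the 9 values, 7 belong to KO libraries 5 or 6.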

How the results depend on the processing

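Of the 33 members, 12 kept their direction and their side of the threshold under all 25 alternatives, and Slc2a3 and Epas1, below the filter, did so under the 15 run for them. Slc16a3 is among the 12, and its call follows from the filter. Over single libraries left out, members called higher numbered 16 to 18 and lower 4 to 6, and genes called 7225 to 8167; under the other settings they numbered 13 to 19, 4 to 7 and 4775 to 10031. A filter of 5 FPKM, which tests fewer genes, gave 4775 calls over all genes, 5 among the other isoenzymes and 7 in the pyruvate list. These directions reversed. Eno1 was 0.86 with copies summed. Gapdh was 0.0057 with copies summed, and -0.32 to 0.17 without 1 library. Gpi1 was -0.066 under quantile normalization. Tpi1 was -0.007018 under median-ratio scaling, -0.063 under library weights, -0.053 without KO libraries 5 and 6, and -0.021 to 0.027 without 1 library. Pdk1 was 0.029 under library weights and 0.022 without KO libraries 5 and 6. Aldoc was 0.10 without those libraries and -0.086 to 0.043 without 1 library. The cause was not tested. Same-numbered libraries did not deviate together (correlations -0.273 to -0.0582, and 0 libraries correlated best with their own number), so no pairing by number was seen. This check cannot exclude pairing, because KO libraries 5 and 6 differ from KO libraries 1 to 4 in ways the WT libraries do not. With the replicate block all genes called numbered 6959, and Pfkp (adjusted p = 0.0746), Pkm (0.0544), Bnip3 and Tkt lost their calls. In an exact rank-sum test Pfkfb4, Eno2, Slc16a1 and Tkt had an adjusted p of 0.0942. Without reads, counting error cannot be given, and low members such as Slc2a3 and Aldoc are the least certain.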
